A study of Mus musculus with 6 samples.

Results

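The 10 genes described here encode proteins of the BCL2 family, which govern whether a cell's mitochondria release the signal for apoptosis. They were chosen by name: the pro-survival members Bcl2, Bcl2l1 and Mcl1, the pore-forming effectors Bax and Bak1, and the BH3-only members Bcl2l11, Bbc3, Pmaip1, Bid and Bad, a set looked at as a possible sign of drug toxicity. All 10 were found among the 49548 genes of the deposited table, each once. All 10 also passed the filter on low values, at least 10 normalised counts in at least 3 of 6 libraries, that left 12614 genes for testing.

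The study treated cultured synovial fibroblasts (SFs), the stromal cells that line and support the joint, with amisulpride, an antipsychotic drug that blocks dopamine and serotonin receptors, to ask whether it quiets arthritic SFs. SFs came from the ankle joints of hTNFtg mice, which carry a human TNF transgene and develop arthritis of many joints. The 3 libraries of the control group were made from SFs that the labels describe as not treated, and the 3 libraries of the other group from SFs given 500 μM amisulpride for 48 hours. Both groups carried the transgene, so each comparison below is of treated with untreated hTNFtg SFs, and no wild-type cells entered it. The study reports less hTNF transcript and less secreted hTNF in hTNFtg SFs given this treatment, so TNF exposure may differ between the groups. On toxicity, it reports that the amisulpride concentrations it used, this one included, were not toxic by a crystal violet assay. The study's methods give 8-week-old mice on a CBA C57BL/6J background, removal of CD45+ (blood-derived) cells at the first passage, 3 biological replicates per group, and a vehicle control where the labels give none, so the controls are called untreated here. The sources used here do not say how many mice went into a culture.

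In the mitochondrial route to apoptosis, pro-survival proteins hold the effectors Bax and Bak in check at the outer mitochondrial membrane. BH3-only proteins sense growth factor loss, DNA damage or stress in the endoplasmic reticulum and neutralise the pro-survival proteins or activate the effectors directly, after which Bax and Bak form pores, cytochrome c escapes and caspases are switched on. Much of this control acts on the proteins, through cleavage, phosphorylation, binding and degradation, and a transcript level reports only the supply of message. Synovial fibroblasts in arthritis are known for their resistance to apoptosis, and Mcl1 and Bcl2 are among the proteins credited with it.

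The libraries held 3.833 M to 4.504 M normalised counts each, that is, reads assigned to genes divided by the library's size factor and rounded by the authors. The spacing of the values placed the depth at approximately 2.52 M to 4.71 M reads, lowest in amisulpride replicate 3, and the value for untreated replicate 1 was poorly determined. Amisulpride replicate 3 also stood apart from the other libraries, at 73.9 on the first principal component of all genes tested, against -38.2 to 10.4, a component that held 37.1% of the variance. This library was the lowest of 6 for 5 of the 10 BCL2 family genes (Bax, Bak1, Bcl2l11, Bbc3 and Bad) and the highest for 3 (Bcl2l1, Mcl1 and Bid), so each member and ratio is also given without it. All 13 fibroblast markers were measured, with a summed level of 45221 to 60240 normalised counts in untreated and 52114 to 91864 in treated libraries, and 1 of 13, Prg4, was lower in treated cells at an unadjusted p below 0.05, as were 5.77% of all genes tested. The 10 myeloid markers summed to 2348 to 4003 and 2178 to 4048 normalised counts, and 2 of 10, Cd14 and Csf1r, were lower. The 10 markers of cycling cells summed to 768 to 928 normalised counts in untreated and 541 to 723 in treated libraries, with 5 of 10 lower by the same criterion. Among them, Mki67 passed the filter on low values only through its untreated libraries. Of 5 markers each, 0 endothelial and 1 muscle marker (Acta1) passed the filter, with sums of 1 to 15 and 8 to 44 normalised counts, and Cdh5, Myh4 and Myh1 were at 0 in all libraries. Of lymphocyte genes, Cd3e, Cd79a and Nkg7 were at 0 in all libraries and Cd3d was at 11 to 33 normalised counts. In bulk RNA, fewer cells of a type and less RNA per cell cannot be told apart, and the part of myeloid cells and of cell cycle state in the values below was not tested.

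At an adjusted p below 0.05 (limma with Benjamini-Hochberg adjustment over all genes tested), none of the 10 BCL2 family genes differed between amisulpride-treated and untreated hTNFtg SFs. The background for that count was low, since 36 of 12614 genes, 0.285%, passed. Before adjustment, 3 of the 10 were lower in treated cells at a p below 0.05, both effectors (Bax and Bak1) and the BH3-only gene Bcl2l11, against 5.77% of all genes. None of the 10 was higher by that criterion, against 5.11% of all genes. The study's own thresholds ask for a log2 change of 1 or more in size beside an unadjusted p below 0.05. They were applied here to the limma values and not to the study's own DESeq results. In this way none of the 10 was called, against 5.7% of all genes in either direction. For the same 3 genes every treated library lay below every untreated library, an arrangement seen in 8.66% of all genes tested, and no member had every treated library above, against 7.8% of all genes. The median log2 fold change of the 10, on the scale of log2(normalised count + 1), was -0.16, with 6 negative and 4 positive values, and that of all genes tested was 0.002.

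**Figure D1:**
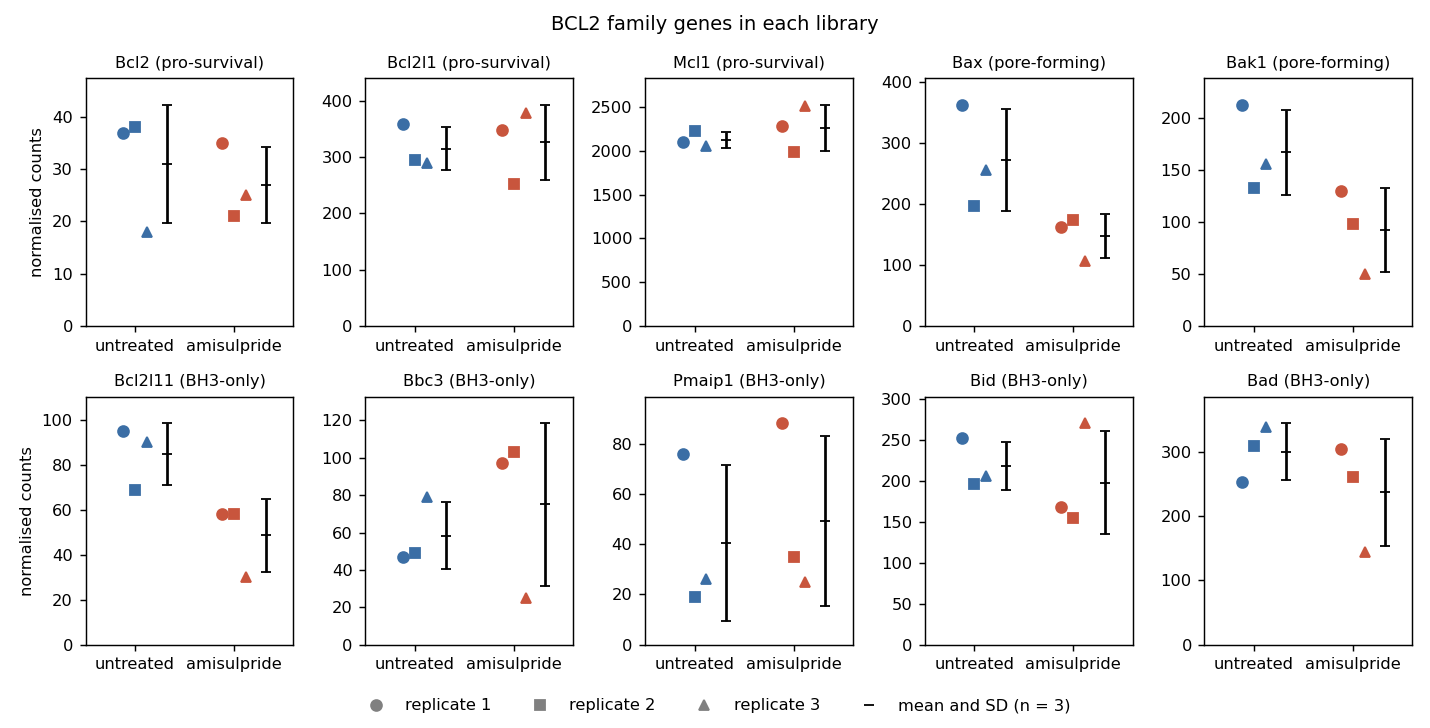
Normalised counts (vertical axes, each from 0) of the 10 BCL2 family genes in the 3 untreated (blue) and 3 amisulpride-treated (red) libraries, with the marker shape giving the replicate number and the black bars the mean and SD of each group (n = 3). The groups do not overlap for Bax, Bak1 and Bcl2l11, where every treated library is lower, and overlap for the other 7 genes.

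No pro-survival gene separated the groups. Mcl1, on chr3:95658788-95663176 of mm10, encodes a short-lived protein that many cells need continuously. Its level was 2097, 2231 and 2052 normalised counts in untreated replicates 1, 2 and 3, and 2286, 1986 and 2511 in amisulpride replicates 1, 2 and 3. The groups overlapped, with means of 2127 ± 93.1 and 2261 ± 263 (SD, n = 3 each). The log2 fold change was 0.083, with a 95% interval of -0.44 to 0.60 (limma adjusted p = 0.924), and without amisulpride replicate 3 it was 0.004.

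Bcl2l1, on chr2:152780668-152831728, encodes BCL-XL and, through splicing, a shorter pro-death form that gene-level counts do not separate. It stood at 359, 295 and 290 normalised counts in the untreated and at 348, 252 and 379 in the treated libraries, which overlap, since amisulpride replicate 2 is the lowest of all and amisulpride replicate 3 the highest. The log2 fold change was 0.038, with a 95% interval of -0.52 to 0.59 (limma adjusted p = 0.970), and it turned to -0.080 without amisulpride replicate 3.

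Bcl2, on chr1:106538178-106714274, encodes the protein that gave the family its name. It was at 37, 38 and 18 normalised counts in untreated and 35, 21 and 25 in treated libraries. The lowest value of all was untreated replicate 3, and the groups overlapped. These values rest on approximately 14 to 39 reads per library, and the 95% interval of the log2 fold change, -1.05 to 0.75 around -0.15, is wide on both sides of 0 (limma adjusted p = 0.919). Without amisulpride replicate 3 the log2 fold change was -0.11, and without untreated replicate 3 it was -0.49.

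Both effectors were lower in each treated library than in any untreated one. Bax, on chr7:45461697-45466898, encodes a protein that moves from the cytosol to mitochondria and oligomerises in their outer membrane. It was at 363, 197 and 257 normalised counts in untreated and 163, 174 and 106 in treated libraries. The nearest libraries of the groups were untreated replicate 2 and amisulpride replicate 2, and untreated replicate 1 was well above the others. With means of 272.3 ± 84.1 and 147.7 ± 36.5 (SD, n = 3 each), the log2 fold change was -0.87 ± 0.30 (SE), or 1.82-fold lower, with a 95% interval of -1.53 to -0.20. The limma p was 0.0155 before and 0.298 after adjustment. Without amisulpride replicate 3 the log2 fold change was -0.65, still past the unadjusted threshold of 0.05, and without untreated replicate 1 it was -0.64 and no longer past it.

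Bak1, on chr17:27019810-27029009, encodes the effector that resides at the mitochondrial membrane and shares the pore-forming task with Bax. Its untreated libraries held 213, 133 and 156 normalised counts and its treated libraries 130, 98 and 50. Amisulpride replicate 1 (130) and untreated replicate 2 (133) nearly touched, and amisulpride replicate 3, with approximately 28 reads, was far below the rest. The means were 167.3 ± 41.2 and 92.7 ± 40.3 (SD, n = 3 each), the log2 fold change was -0.92 ± 0.36 (SE), with a 95% interval of -1.71 to -0.13, and the limma p was 0.0259 before and 0.363 after adjustment. The call at the unadjusted level was lost without amisulpride replicate 3 (log2 fold change of -0.54), without untreated replicate 1 (-0.73) and without untreated replicate 3 (-0.96).

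Of the BH3-only genes, Bcl2l11, on chr2:128126038-128162547, encodes BIM, which binds all pro-survival members and responds to loss of growth factor signals and to FOXO transcription factors. It was at 95, 69 and 90 normalised counts in untreated and 58, 58 and 30 in treated libraries, so the groups did not overlap. The means were 84.7 ± 13.8 and 48.7 ± 16.2 (SD, n = 3 each), with a log2 fold change of -0.83 ± 0.34 (SE), a 95% interval of -1.57 to -0.098, and a limma p of 0.0297 before and 0.387 after adjustment. As for Bak1, the unadjusted call did not survive leaving out amisulpride replicate 3 (log2 fold change of -0.53), untreated replicate 1 (-0.74) or untreated replicate 3 (-0.78). Amisulpride replicate 3 held approximately 17 Bcl2l11 reads, and the other treated libraries 65 and 43.

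Deviations from the group means correlated weakly between replicates with the same number, at 0.201 to 0.240. On that basis the difference within each number was read as a pair. The log2 differences, treated minus untreated, in pairs 1, 2 and 3 were -1.15, -0.18 and -1.27 for Bax, -0.71, -0.44 and -1.62 for Bak1, and -0.70, -0.25 and -1.55 for Bcl2l11. All 3 genes were lower in 3 of 3 pairs, which any matching would give, since every treated library lay below every untreated one. Pair 2 showed the smallest difference for each. A limma fit with the replicate number as a block gave the same 3 genes at unadjusted p of 0.00713, 0.00654 and 0.0214, with adjusted p of 0.134, 0.128 and 0.234, and it raised the number of all genes called at an adjusted p below 0.05 from 36 to 263. Over all alternatives run, the adjusted p of limma was 0.134 to 0.695 for Bax, 0.128 to 0.722 for Bak1 and 0.234 to 0.745 for Bcl2l11.

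**Figure D2:**
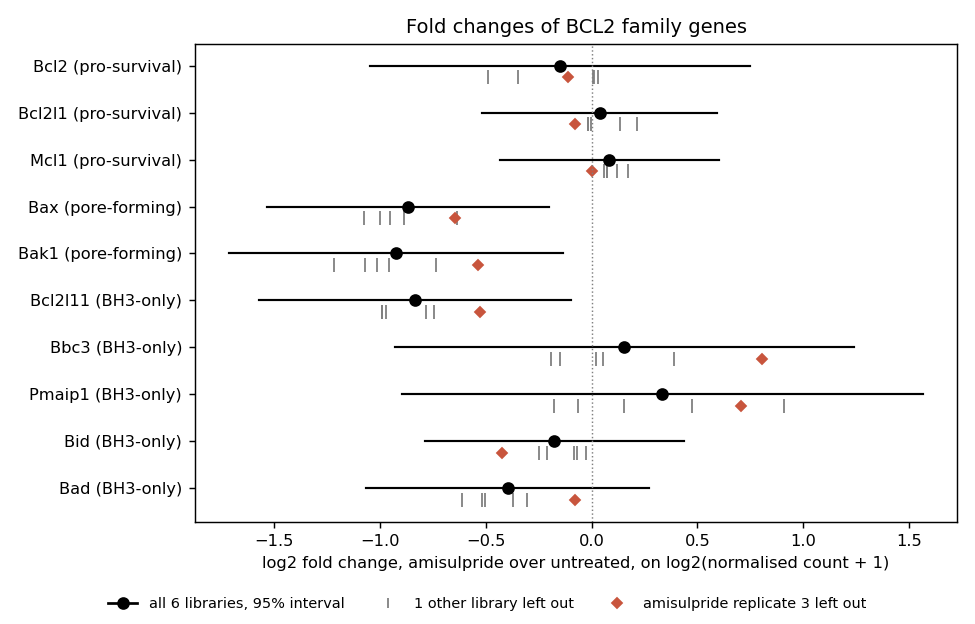
Log2 fold change of amisulpride over untreated (horizontal axis, on log2(normalised count + 1)) for each BCL2 family gene, with its 95% interval from limma (black), the values with 1 library left out (grey ticks) and the value without amisulpride replicate 3 (red diamonds). The intervals of Bax, Bak1 and Bcl2l11 lie below 0, and the values of Bbc3 run from -0.19 to 0.81 depending on the library left out.

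The remaining BH3-only genes did not separate the groups. Bbc3, which encodes PUMA, a direct target of p53 that also responds to stress in the endoplasmic reticulum, lies at chr7:16308393-16318205. It was at 47, 49 and 79 normalised counts in untreated and 97, 103 and 25 in treated libraries. Amisulpride replicates 1 and 2 were above every untreated library and amisulpride replicate 3, with approximately 14 reads, was below them all. The log2 fold change of 0.15 had a 95% interval of -0.93 to 1.24 (limma adjusted p = 0.932). Without amisulpride replicate 3 it was 0.81, past the unadjusted threshold of 0.05 but not the adjusted one. Without amisulpride replicate 1 or 2 it was -0.15 or -0.19, so its size and its direction depended on which library was left out. Bbc3 was in this respect unlike Bcl2l11, which was lower in amisulpride replicates 1 and 2 as well as in replicate 3.

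Pmaip1, on chromosome 18, encodes NOXA, a selective partner of MCL1 that is induced through p53 and through the integrated stress response. It was at 76, 19 and 26 normalised counts in untreated and 88, 35 and 25 in treated libraries. Replicate 1 of either group was the highest in its group by a wide margin, so the spread between cultures exceeded the difference between groups. The log2 fold change of 0.33 had a 95% interval of -0.90 to 1.56 (limma adjusted p = 0.860). Dropping amisulpride replicate 3 gave 0.71, dropping untreated replicate 1 gave 0.91, and dropping amisulpride replicate 1 gave -0.18.

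Bid, on chr6:120891930-120916853, encodes the link from death receptors to mitochondria, since caspase 8 cleaves its product to an active form. Its level was 252, 196 and 206 normalised counts in untreated and 168, 155 and 270 in treated libraries. Amisulpride replicates 1 and 2 were the lowest of the 6 and amisulpride replicate 3 the highest, and the log2 fold change was -0.18, with a 95% interval of -0.79 to 0.44 (limma adjusted p = 0.851). The Bid log2 fold change was -0.42 when amisulpride replicate 3 was dropped and -0.025 when amisulpride replicate 2 was. Bad, on chr19:6941861-6951898, encodes a BH3-only protein held inactive by phosphorylation downstream of growth factors. It was at 253, 310 and 340 normalised counts in untreated and 306, 262 and 145 in treated libraries, with a log2 fold change of -0.40 and a 95% interval of -1.07 to 0.27 (limma adjusted p = 0.688). Without amisulpride replicate 3, the lowest Bad library, the log2 fold change was -0.077.

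Some members share genomic space with other genes, and the sources used here do not say whether counting used strand. Bid and Bcl2l13 overlap by 913 bases on opposite strands and Bad and Gpr137 by 590, with Bcl2l13 at 23 to 56 and Gpr137 at 75 to 166 normalised counts. Ggnbp1, which runs opposite to Bak1 and shares 9200 bases with it, was at 2 to 17. The protein-coding model RP23-218K15.5, which shares 915 bases with Bax on the same strand, was at 0 to 3. These overlaps are of gene bounds, introns included. Reads of the overlapping parts could therefore be split or left out for Bid, Bad and Bax. Bak1 is overlapped over its whole length and still held 50 to 213 normalised counts. Its reads were therefore not all left out, though some could be. The overlapping genes of Bax and Bak1 were low in every library, which does not show how shared reads were counted.

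Because a library's scaling cancels in a ratio of genes measured in it, the balance of pro-death over pro-survival transcripts was also described within each library, as a difference of log2(normalised count + 1) values without a test. Bax over Mcl1 was -2.53, -3.50 and -2.99 in untreated and -3.80, -3.51 and -4.55 in treated libraries, all treated values being lower by a narrow margin. Bcl2l11 over Mcl1 was -4.45, -5.00 and -4.50 in untreated and -5.28, -5.07 and -6.34 in treated libraries, and again did not overlap. For Bcl2l11 over Bcl2l1 the untreated libraries gave -1.91, -2.08 and -1.68 and the treated libraries -2.56, -2.10 and -3.62. In these 3 ratios amisulpride replicate 2 lay next to the nearest untreated library, and amisulpride replicate 3 lay farthest from it.

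Bax over Bcl2l1 was 0.016, -0.58 and -0.17 in untreated and -1.09, -0.53 and -1.83 in treated libraries, where amisulpride replicate 2 lay inside the untreated range. The ratios to Bcl2 also overlapped, with the low counts of Bcl2 in both. Bax over Bcl2 had means of 3.12 ± 0.72 and 2.41 ± 0.51 (SD, n = 3 each), and Bcl2l11 over Bcl2 had 1.48 ± 0.72 and 0.80 ± 0.59. The mean difference, treated minus untreated, was negative for all 6 ratios, from -0.68 to -0.95, and since Bax or Bcl2l11 is in the numerator of each, these are not 6 separate observations. When amisulpride replicate 3 was dropped, the mean differences were smaller, at -0.53, -0.56 and -0.65 for Bax over Bcl2, Bcl2l1 and Mcl1 and at -0.41, -0.44 and -0.53 for Bcl2l11 over the same genes. Without untreated replicate 3 the ratios to Bcl2 differed by only -0.40 for Bax and -0.29 for Bcl2l11, and without untreated replicate 2 Bax over Bcl2 differed by -1.10.

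**Figure D3:**
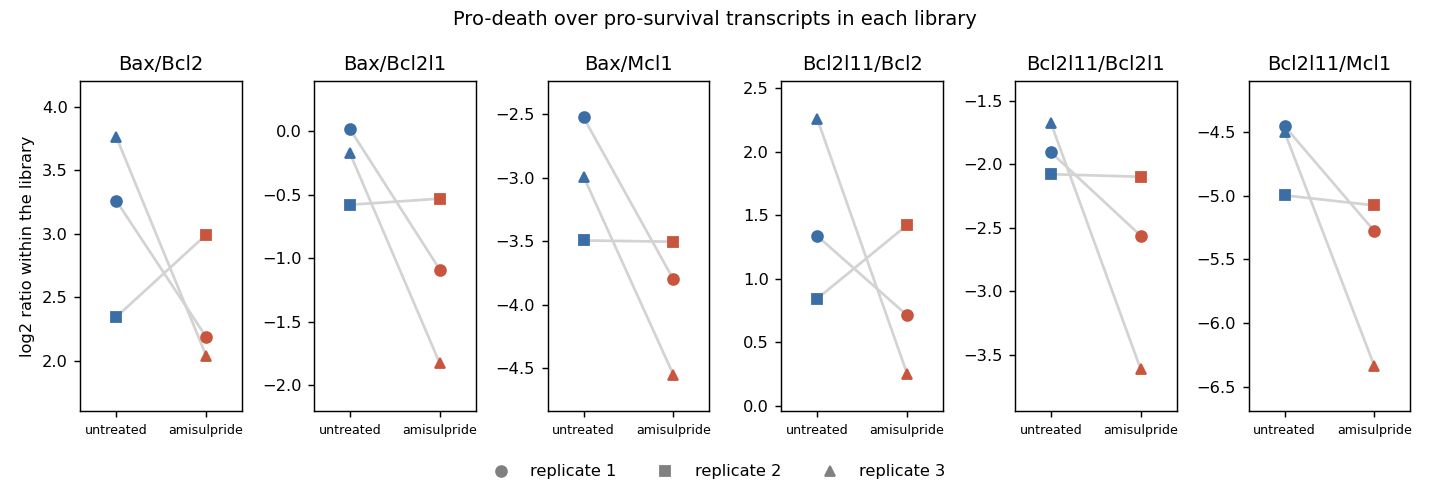
Log2 ratio of Bax or Bcl2l11 to each pro-survival gene within every library (vertical axes, each spanning the same number of log2 units), with blue for untreated, red for amisulpride and grey lines joining replicates of the same number. Treated libraries lie below untreated ones in replicates 1 and 3 of all panels, and in replicate 2 the values are nearly level or, over Bcl2, higher.

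The promoters of Bax, Bak1 and Bcl2l11 are shown because these are the members that were lower together before adjustment. The sequences are the 250 bases before the transcript start in RefSeq (GRCm38.p6, the assembly called mm10), read 5′ to 3′ on the gene's strand, and 9 of the 10 members had at least 1 such window, 15 in all. Capitals mark matches on either strand to the E-box CACGTG, the GC box GGGCGG, the CCAAT box (CCAAT), the FOXO motif GTAAACA and the p53 half-site. The motifs and windows were chosen after the values were seen.

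Bax, chr7:45466899-45467148, minus strand: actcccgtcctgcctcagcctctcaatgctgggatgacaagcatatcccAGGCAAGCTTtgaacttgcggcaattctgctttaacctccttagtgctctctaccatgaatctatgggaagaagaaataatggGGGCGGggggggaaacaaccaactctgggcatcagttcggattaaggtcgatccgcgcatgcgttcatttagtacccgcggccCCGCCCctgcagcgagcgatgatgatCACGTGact
Bak1, chr17:27028628-27028877, minus strand: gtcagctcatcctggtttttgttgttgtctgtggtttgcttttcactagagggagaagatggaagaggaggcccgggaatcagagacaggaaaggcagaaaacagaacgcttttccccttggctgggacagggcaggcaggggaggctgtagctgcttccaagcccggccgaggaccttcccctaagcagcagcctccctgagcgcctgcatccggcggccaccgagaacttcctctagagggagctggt
Bcl2l11, chr2:128125788-128126037, plus strand: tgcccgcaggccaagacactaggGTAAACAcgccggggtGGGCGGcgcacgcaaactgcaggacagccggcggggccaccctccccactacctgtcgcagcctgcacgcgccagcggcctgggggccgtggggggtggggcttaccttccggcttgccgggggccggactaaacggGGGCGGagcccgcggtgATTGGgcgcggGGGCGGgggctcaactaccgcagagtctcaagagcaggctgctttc

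No motif was common to the 3 windows. The Bax window held an E-box 4 to 9 bases before the start, GC boxes at 30 to 35 and 113 to 118, and a p53 half-site match at 192 to 201. In the first of the Bcl2l11 windows there were GC boxes at 41 to 46, 69 to 74 and 206 to 211, a CCAAT box at 53 to 57 and a FOXO match at 221 to 227 bases before the start. The Bak1 window, which lies inside the gene's bounds in the deposited table, matched none of these letters, nor the CRE TGACGTCA, the ATF4-CHOP composite TTGCATCA or the kappaB motif. Among all 32851 windows of this length, the E-box was found in 6.02%, the GC box in 32.7%, the CCAAT box in 33.8%, the FOXO motif in 3.17%, the p53 half-site in 7.13%, the CRE in 1.55%, the ATF4-CHOP composite in 0.791% and the kappaB motif in 1.42%. The GC content was 54.0% for Bax, 58.4% for Bak1 and 72.0% for Bcl2l11, against a median of 52.4%. A match describes letters in a window and not a factor's binding.

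Around the 10 genes, the other members of the family were also compared. Of 15 listed, 7 passed the filter on low values. None was called at an unadjusted p below 0.05 in limma, against 5.11% higher and 5.77% lower of all genes. Bnip3 and Bnip3l, which encode mitochondrial proteins that respond to hypoxia and promote mitophagy, were at 1390, 1302 and 1710 against 1878, 1545 and 2477 normalised counts and at 307, 414 and 421 against 423, 458 and 696, untreated against treated. Their log2 fold changes were 0.40 and 0.44 (limma adjusted p = 0.620 and 0.594), and for Bnip3l every treated library was above every untreated one, as in 7.8% of all genes tested.

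Bcl2l2, which encodes the pro-survival protein BCL-W, was at 136, 169 and 99 normalised counts in untreated and 88, 103 and 129 in treated libraries. Bok, an effector related to Bax and Bak, was at 66, 30 and 29 and at 16, 48 and 14, and the groups overlapped for both genes. Bcl2a1b, encoding a pro-survival protein best known in blood cells and one of several near-identical copies between which reads can be split, was at 27, 11 and 28 against 15, 8 and 29, and its copies Bcl2a1a and Bcl2a1d were at 0 to 7. Bcl2l13 overlapped between the groups, and Bcl2l12 was at 8, 5 and 3 against 13, 11 and 13 and passed the filter only through its treated libraries. Of the remaining BH3-only genes, Bmf was at 0 to 7 and Bik at 0 or 1, and Hrk was at 5, 7 and 4 against 2, 0 and 2, at or near the level that 3 reads give (2.51 to 5.37 normalised counts). Bcl2l14 and Bcl2l15 were at 0 to 2, and Bcl2l10 was listed at 0 in all libraries.

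Downstream of the pores, none of 13 genes for outer membrane channels, the apoptosome and caspases was called at an unadjusted p below 0.05. The shares of all genes so called were 5.11% higher and 5.77% lower. The median log2 fold change of the 13 was 0.015, and -0.019 with quantile normalisation. Among 6 caspase inhibitors, 5 did not pass and 1, Birc5, was lower by that criterion, against the same 5.77% of all genes. Birc5 encodes survivin, an inhibitor of apoptosis that also serves chromosome segregation in mitosis. It was at 513, 268 and 233 normalised counts in untreated and 120, 158 and 267 in treated libraries. The groups overlapped through amisulpride replicate 3 (log2 fold change of -0.88, limma adjusted p = 0.406). By the same unadjusted criterion 5 of the 10 cycling cell markers were lower, Mki67, Top2a, Cdk1, Plk1 and Mcm5, against 5.77% of all genes. Mki67, at 28, 24 and 11 against 3, 3 and 18 normalised counts, passed the filter only through its untreated libraries, so its place in that count is no support for a difference. The Birc5 log2 fold change was -1.20 when amisulpride replicate 3 was dropped, and the unadjusted threshold was missed without untreated replicate 1, without amisulpride replicate 1 or 2, and without the variance trend. Of 11 genes for death receptors and their adaptors, 10 were tested and none was called, and Fasl was listed at 0.

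Upstream, 2 of 18 genes of p53 and its targets were higher in treated cells at an unadjusted p below 0.05, against 5.11% of all genes, and none was lower, against 5.77%. Gadd45a, a growth arrest gene that stress induces, was at 105, 88 and 139 normalised counts in untreated and 197, 218 and 236 in treated libraries, a log2 fold change of 0.99 ± 0.26 (SE; limma adjusted p = 0.167). Perp, which encodes a membrane protein of desmosomes also named as a p53 effector, was at 9, 7 and 0 against 23, 25 and 27. It passed the filter on low values only through its treated libraries, so its place in the count of 2 is no support for a difference. Trp53 itself and the widely used p53 targets Mdm2 and Cdkn1a overlapped between the groups, with log2 fold changes of 0.19, -0.013 and 0.13, as did the BH3-only p53 targets Bbc3 and Pmaip1 described above.

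Among 10 transcription factors that act on BH3-only genes, 2 were higher (5.11% of all genes) and none lower (5.77%) at an unadjusted p below 0.05. Ddit3, which encodes CHOP, a stress factor known to raise Bcl2l11 and Bbc3 and to repress Bcl2, was at 253, 221 and 214 normalised counts in untreated and 480, 695 and 306 in treated libraries. The log2 fold change was 1.03 ± 0.30 (SE; limma adjusted p = 0.212). Without amisulpride replicate 3 it was 1.33 with an adjusted p of 0.0271, and over all alternatives run its adjusted p was 0.0267 to 0.587, below 0.05 also with array weights. Atf3, a partner of CHOP in the stress response, was at 7, 8 and 16 against 32, 32 and 27. The filter was here, too, decided by the treated libraries, so the place of Atf3 in the count of 2 is no support for a difference. Every treated library was above every untreated one for Gadd45a, Perp, Sesn1, Sesn2, Ddit3 and Atf3 of these lists, an arrangement seen in 7.8% of all genes tested, and below for Zmat3 and Foxo4, as in 8.66%. For Perp and Atf3 the filter favoured that arrangement, so it is no support for a difference. In the main fit Gadd45a and Ddit3 were higher and Bcl2l11 was lower before adjustment only, and Bbc3, Pmaip1 and Bcl2 overlapped between the groups. Any link between these genes was not tested. Foxo4 lay at the edge, at 28, 33 and 43 against 9, 23 and 23 (log2 fold change of -0.97, limma adjusted p = 0.460), with no overlap between the groups. In the fit with the replicate block it joined Birc5 in passing the unadjusted threshold, which makes 2 genes of these lists lower in place of 1. Of 6 genes for turnover of the MCL1 protein, 5 were tested and none was called, with a median log2 fold change of -0.068 that was 0.054 with quantile normalisation.

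**Figure D4:**
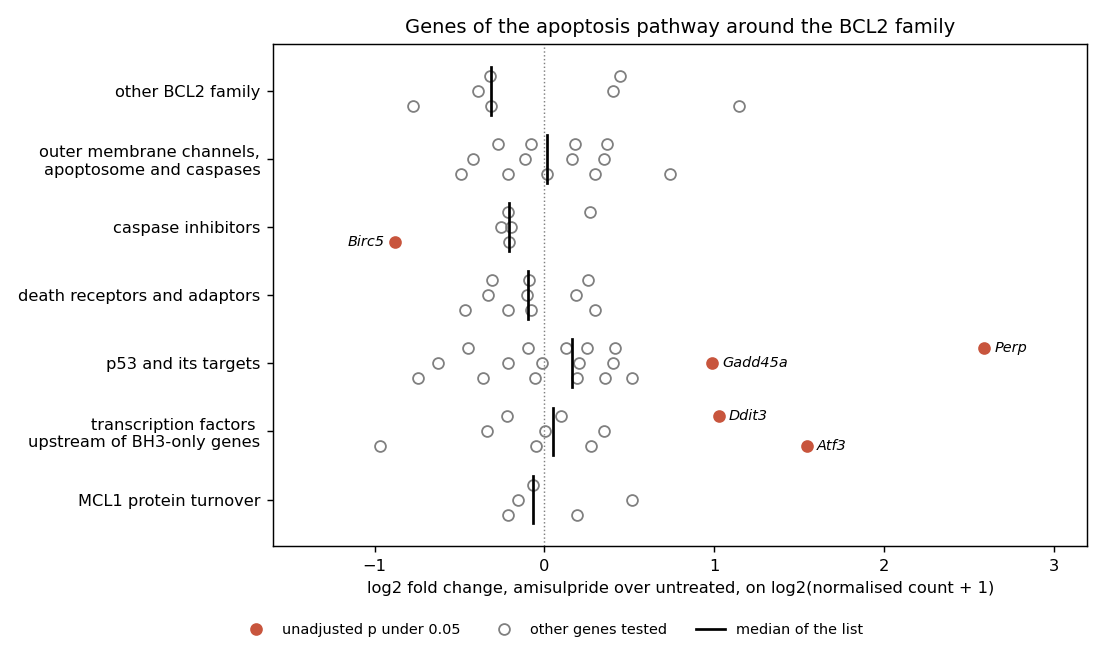
Log2 fold change of amisulpride over untreated (horizontal axis, on log2(normalised count + 1)) of every tested gene in 7 lists of the apoptosis pathway other than the 10 members, with the median of each list as a black bar. Filled red points have an unadjusted limma p below 0.05: Birc5 on the left and Perp, Gadd45a, Ddit3 and Atf3 on the right.

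The genes whose profiles over the 6 libraries were most like those of the members were looked up for 1 pro-survival and 1 pro-death gene, those with the lowest p. For Bax they were Rpl8, Fbxw11 and Psmg1, with Pearson correlations of 0.995, 0.991 and 0.989 over 6 libraries. For Bcl2 they were Dpagt1, the processed pseudogene Gm6223 and Fam124a, at 0.987, 0.972 and 0.969. With 12614 genes compared over 6 libraries that share the same group labels and depth differences, such values are descriptions only.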

How the data were processed

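Total RNA of cultured hTNFtg SFs was made into 3′ end libraries (QuantSeq) and sequenced on an Ion Proton instrument. According to the study's methods and the submitters' processing notes, reads were mapped to mm10 with TopHat2 and Bowtie2, counted with GenomicRanges and normalised with DESeq in metaseqr, with versions and strand setting not given in the sources used here. The deposited values are normalised counts rounded by the authors, treated here as a score and not as raw counts. A further 12 per-library columns, and the columns of the authors' p values, false discovery rates and fold changes, were not used. The groups were compared with limma 3.58.1 (R 4.3.3, mean-variance trend, two-sided) on log2(value + 1), which understates changes of low genes, over the 12614 genes with at least 10 normalised counts in at least 3 libraries, with Benjamini-Hochberg adjustment. The procedure was tested on simulated data with independent libraries and the same dispersion for every gene. Those data held no outlying library and no pairing, so the test covers neither. An exact permutation test of 3 against 3 libraries cannot go below 0.1 and was not used. Depth was estimated from the spacing of the values, and the floor of 3 reads covers counting error only. Replicate numbers come from the sample titles, and deviations from the group means correlated at 0.229, 0.240 and 0.201 between libraries of the same number. The numbers were therefore read as pairs for the differences within a number and for the fit with the replicate block. The main fit did not pair the libraries, as the study's methods name no block. Intervals, and p values not credited to the block, are from unpaired fits. The members, lists and tests were chosen with earlier results of these data known. Beside the members, genes of each list with an unadjusted p below 0.05 are named (at most 5 by p), with the other BCL2 family genes measured and the 3 genes most correlated with 1 pro-survival and 1 pro-death member. Trp53, Mdm2, Cdkn1a, Sesn1, Sesn2, Zmat3, Foxo4, Fasl and the marker and overlapping genes were named after their values were seen. Alternatives varied the pseudocount, filter, scaling, library weights, variance trend and replicate block, and left out each library in turn.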

Additional observations from a re-analysis of the deposited data

How the results depend on the processing

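The direction of Bax, Bak1, Bcl2l11, Mcl1, Bid and Bad held under every alternative run. With equal weights replaced by array weights, 1 of the 10 members in place of 3 was lower at an unadjusted p below 0.05, since Bak1 (-0.62) and Bcl2l11 (-0.62) missed it. Leaving out 1 library gave 0 to 3 members lower and 0 to 1 higher, with 0 lower without untreated replicate 1, and the 1 higher being Bbc3 without amisulpride replicate 3. The fold change changed sign on leaving out 1 library for Bcl2 (0.010 and 0.029 on dropping untreated replicates 1 and 2, 0.008 on dropping amisulpride replicate 2, lowest -0.49), for Bcl2l1 (-0.005 and -0.017 on dropping untreated replicates 2 and 3, -0.019 and -0.080 on dropping amisulpride replicates 1 and 3, highest 0.21), for Bbc3 (-0.15 and -0.19 without amisulpride replicates 1 and 2, highest 0.81) and for Pmaip1 (-0.062 on dropping untreated replicate 2, -0.18 on dropping amisulpride replicate 1, highest 0.91). The cause was not tested.

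Over all genes, 36 passed at an adjusted p. The number was 57 with a pseudocount of 5, 57 with no filter, 66 with quantile normalisation, 195 with array weights, 263 with the replicate block and 0 to 120 with 1 library left out. Dropping untreated replicate 1 left 1 gene, and dropping untreated replicate 2 or 3 left 0, where 1083 and 911 genes passed at an unadjusted p in limma, the only tool run. At an unadjusted p 1373 genes passed, 873 with a mean of at least 50 (fewer genes tested), and 911 to 1630 with 1 library left out. The 7 wider lists had 7, 13, 6, 10, 18, 10 and 5 genes tested. Of these, 4 genes were higher in the main fit at an unadjusted p, against 5.11% of all genes tested. With a mean of at least 50 there were 2, where Perp and Atf3 were not tested. In the main fit Perp and Atf3 passed the filter on low values only through their treated libraries. In the main fit 1 gene of the lists, Birc5, was lower, against 5.77% of all genes tested. Lower genes numbered 2 with a pseudocount of 5, with no filter, with median centring and with the replicate block. They numbered 5 with array weights and 0 to 5 with 1 library left out. The genes called among all genes, in either direction, also rose from 1373, to 1741 with array weights and 1571 without amisulpride replicate 3. The replicate block changed no call of a member. Bcl2 and Pmaip1 have no value with a mean of at least 50. No scaling moved the median of all genes by more than 0.1 log2 units. Of 148 alternative values of single members, 11 had the opposite sign and 10 crossed the unadjusted threshold, and of 105 alternative medians of the wider lists 14 had the opposite sign. There were 3 libraries per group and approximately 14 to 108 reads per library for Bbc3, Bcl2 and Pmaip1. Their intervals are wide, and changes of a size within them are not excluded by these data. The parts of read depth and of spread between cultures in that width were not tested.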
